A study of Oryza sativa with 12 samples.

Results

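A stretch of 100 rice genes on chromosome 4, dense in transcripts that differ between a heat-tolerant and a heat-sensitive cultivar, was described in spikelets at anthesis, when the rice flower opens and sheds pollen. Genes were ordered by ID among the 1915 tested genes whose ID starts with MH04g, and the segment holds 100 in a row starting with the 87th, from MH04g0055100 to MH04g0124400. These are 100 of 22321 tested genes, and the other 1815 MH04g genes served for comparison. Chromosome 4 is read from the digits after MH in the ID, and no file states it. The files give no names, functions or coordinates for these IDs, and 0 of 57174 IDs matched the rice gene table used here, so the genes stand under their IDs. Neighbours and adjacent genes are those next to each other among tested genes, and listed genes that were not tested can lie between them.

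Libraries came from BR-IRGA 409, described as tolerant, and IRGA 428, described as sensitive. Plants of each cultivar were kept at 38 °C (heat) or 29 °C (control), 7 h daily over 3 days. Each of the 4 groups had 3 libraries of 2 plants each, and no genotype other than the cultivar is given. Markers of the spikelet could not be looked up without gene names.

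Cultivated rice is largely self-pollinating, so a cultivar is a nearly homozygous line, and neighbouring genes tend to pass to offspring together as a block. Cultivars are known to differ in gene content and in regulatory sequence, and reads from a diverged allele can align poorly to a reference genome. Counts per gene do not separate these, and which of them applies to a gene named here was not tested. Rice chromosome 4 is known for a short arm rich in heterochromatin, the condensed and gene-poor form of chromatin. Where the segment lies relative to that arm is not given in the sources used here.

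Library totals in genes lay between 39.0 and 75.4 M (M, 1000000 counts) in BR-IRGA 409 at 38 °C and between 7.08 and 15.0 M at 29 °C. In IRGA 428 they ran from 16.5 to 27.0 M at 38 °C and from 8.88 to 16.4 M at 29 °C, so depth and temperature were linked in both cultivars. A pair of IRGA 428 libraries of different temperature, heat 1 and control 3, stood close together. The SD of their log2 differences over all tested genes was 0.348, below the 0.359 to 0.919 seen between libraries of one group.

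Expressed genes were sparse in the segment and their levels were low. Between its first and last ID the files list 595 genes, of which 100 (16.8%) passed the filter on low counts, against 38.5% of the 4714 other listed MH04g genes. No read at all was counted in any of the 12 libraries for 359 of the 595 (60.3%), against 39.8% of the others. The median of the mean level was 4.76 CPM (counts per 1000000 on scaled library sizes) over the 100 members and 15.7 CPM over the other tested MH04g genes. Only 35 members averaged 10 CPM or more. The highest were MH04g0108400, with a mean of 199 CPM, and MH04g0067200, with 114 CPM, and for neither were the cultivars called different.

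The segment was chosen by its calls between the cultivars at 29 °C and 38 °C, so the following counts and values describe it and test nothing. Called means an adjusted p below 0.05 in edgeR's quasi-likelihood test over all 22321 genes (Benjamini-Hochberg). At 29 °C 32 of the 100 members were called, where 4.05% of all tested genes were. Of these, 18 were higher in BR-IRGA 409 than in IRGA 428 (1.9% of all tested genes) and 14 lower (2.15%). At 38 °C 44 were called, where 6.53% of all tested genes were, 23 of them higher (background 3.1%) and 21 lower (background 3.43%). Calls at both temperatures in the same direction numbered 31, against 61 (3.36%) of the other 1815 MH04g genes and 3.36% of all tested genes. Of the 31, 17 were higher in BR-IRGA 409 (background 1.48%) and 14 lower (background 1.88%). Fewer cells of a type and less RNA per cell cannot be told apart in such bulk samples. At each temperature the CPM values of the cultivars did not overlap for any called member. Calls rest on the same values, so this is no separate support. Of all 100 members, 53% at 29 °C and 56% at 38 °C did not overlap, against 15.4% and 32.1% of all tested genes. A further 13 members were called at 38 °C alone, 12 of them with the same sign at 29 °C, and 1 at 29 °C alone. The other 55 were called at neither temperature, and 42 of these differed by less than 2-fold at both.

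The calls at 29 °C rested on few libraries. Without BR-IRGA 409 control 2, 19 members were called at 29 °C, against 2.85% of all tested genes, and 19 at both temperatures. Libraries of equal replicate number correlated at 29 °C, and a fit of these 6 libraries with that number as a block called 15 members (1.79% of all tested genes), or 17 without the block (2.1%).

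**Figure D1:**
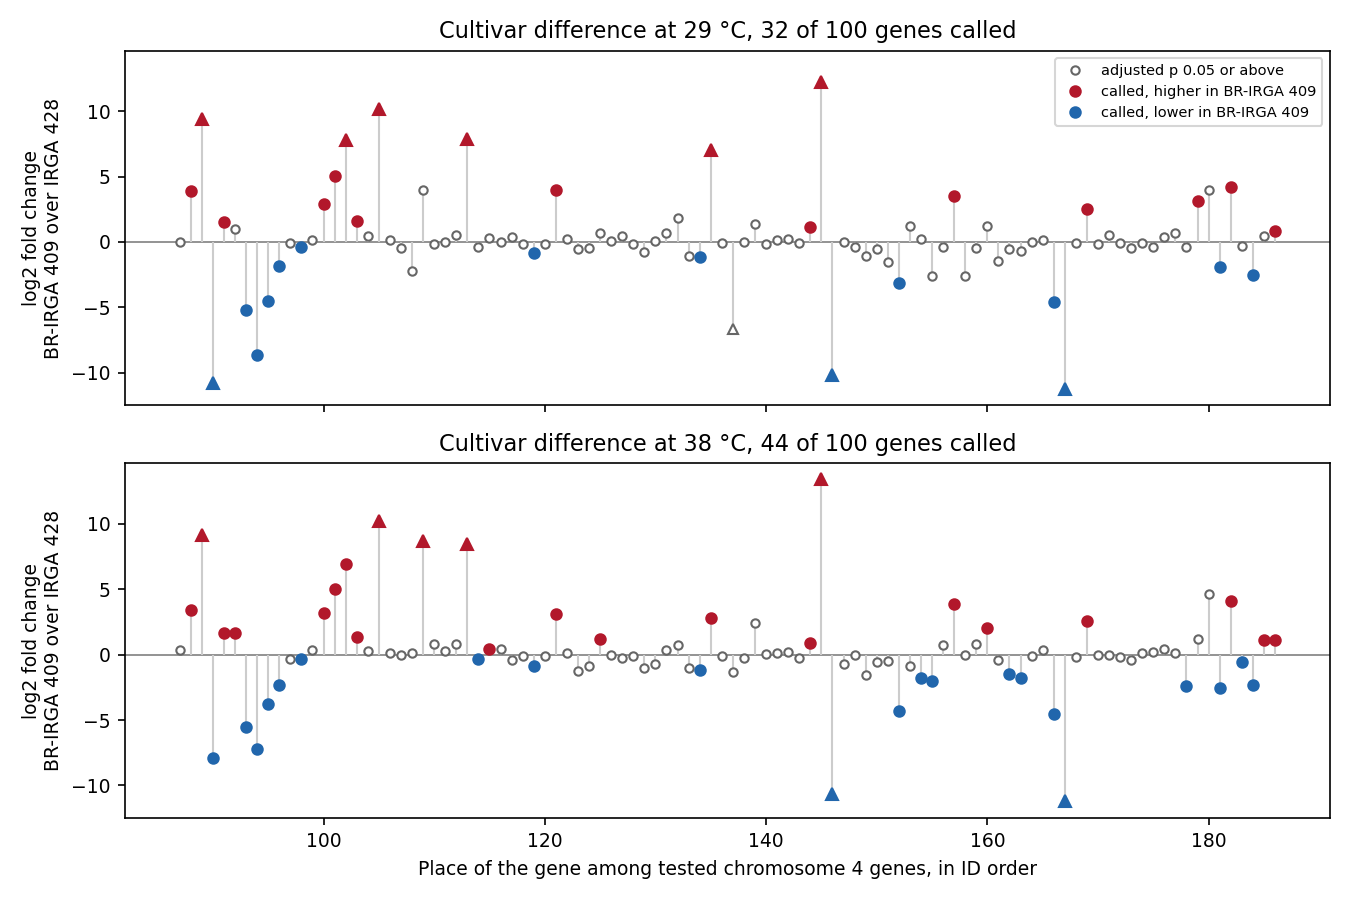
Log2 fold change of BR-IRGA 409 over IRGA 428 at 29 °C and 38 °C for the 100 genes in ID order. Filled symbols are called (32 and 44 genes), and triangles mark genes with 0 counts in a whole group, whose height depends on the prior count and is no measure of size. Genes called in each direction lie near both ends and between them, though short stretches hold calls in the same direction only.

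Differences were large in both directions. Among the 17 members higher in BR-IRGA 409 at both temperatures, 7 differed by over 16-fold at 38 °C, 6 by 4-fold to 16-fold, 3 by 2-fold to 4-fold and 1 by less. Among the 14 lower in BR-IRGA 409, the numbers in the same classes were 7, 4, 1 and 2. At 38 °C the median log2 difference was 3.08 over the 23 higher and −2.34 over the 21 lower members. At 29 °C the medians were 3.92 over 18 and −3.84 over 14. With genes of 0 counts in a group set at their lower bound, the first of these was 3.70 and the other 3 kept their value.

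Some members were read in 1 cultivar alone. Of the 100, 6 had 3 or fewer counts over all 6 IRGA 428 libraries and 2 had so few over all BR-IRGA 409 libraries, 8% in all, against 1.21% of the other MH04g genes and 1.06% of all tested genes. The filter lets a gene in through the group where it is high. In 17 members no library of one of the cultivars reached the filter's 0.608 CPM, against 56 of the other 1815 MH04g genes. These 17 could enter only through the other cultivar, which favours genes that differ, and 15 of them are among the 31.

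MH04g0107200 was the most abundant gene of this kind. It had 78.1, 41.8 and 46.1 CPM in the BR-IRGA 409 heat libraries and 18.7, 23.2 and 31.3 CPM in the BR-IRGA 409 control libraries. All 6 IRGA 428 libraries had 0 counts, so the level was at least 1119-fold higher in BR-IRGA 409 at 38 °C and at least 347-fold higher at 29 °C, a bound set by 3 counts over the group. The next gene in the order of tested genes, MH04g0107300, had the opposite pattern. It had 0 counts in the 6 BR-IRGA 409 libraries, against 5.79, 10.0 and 9.12 CPM in IRGA 428 at 38 °C and 7.21, 6.06 and 5.08 CPM at 29 °C, at least 431-fold and 60.3-fold lower in BR-IRGA 409. On the other side, MH04g0107100 was also called higher in BR-IRGA 409, by 0.85 (log2, SE 0.22) at 38 °C and 1.12 (SE 0.24) at 29 °C. A gene higher in BR-IRGA 409 was thus followed, in the order of tested genes, by one lower in it.

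MH04g0083300 had overlapping heat and control levels where it was read. It had 6.12, 5.76 and 6.07 CPM in BR-IRGA 409 at 38 °C and 5.81, 6.67 and 5.55 CPM at 29 °C, against 0 counts in IRGA 428, at least 128-fold and 88.3-fold higher. MH04g0114800 was its counterpart, with 0 counts in BR-IRGA 409. In IRGA 428 it had 12.6, 11.7 and 11.8 CPM at 38 °C and 11.8, 10.2 and 15.8 CPM at 29 °C, so the level in BR-IRGA 409 was at least 604-fold and 127-fold lower.

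Other members were read in both cultivars at clearly separate levels. MH04g0114600, the neighbour before MH04g0114800, had 0.692, 0.804 and 0.739 CPM in BR-IRGA 409 and 16.5, 20.9 and 15.4 CPM in IRGA 428 at 38 °C. At 29 °C it had 0.968, 0.660 and 1.01 CPM in BR-IRGA 409 and 23.3, 23.9 and 14.7 CPM in IRGA 428. The log2 difference was −4.55 (SE 0.24) at 38 °C and −4.60 (SE 0.27) at 29 °C, closer than their errors. The neighbour on its other side, MH04g0114100, differed by 0.36 (SE 0.26) at 38 °C and was not called.

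MH04g0055300, the second gene of the segment, was higher in BR-IRGA 409. It had 7.61, 9.36 and 7.80 CPM in BR-IRGA 409 and 0.609, 1.01 and 0.710 CPM in IRGA 428 at 38 °C, a log2 difference of 3.40 (SE 0.32). At 29 °C it had 12.4, 7.60 and 9.96 CPM in BR-IRGA 409 and 0.406, 1.04 and 0.508 CPM in IRGA 428, a difference of 3.86 (SE 0.34). At neither temperature did the cultivars overlap.

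MH04g0098500 and MH04g0111900 joined a high level with a large difference. MH04g0098500 had 105, 109 and 74.3 CPM in BR-IRGA 409 and 13.3, 10.9 and 9.86 CPM in IRGA 428 at 38 °C. At 29 °C it had 127, 115 and 154 CPM in BR-IRGA 409, against 4.06, 3.29 and 17.4 CPM in IRGA 428, where control 3 stood apart from the others. The log2 difference was 3.08 (SE 0.51) at 38 °C and 3.98 (SE 0.53) at 29 °C. For MH04g0111900 it was 3.89 (SE 0.61) and 3.54 (SE 0.61).

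Of the lower members read in both cultivars, MH04g0124000 was less secure. It had 1.49, 2.14 and 1.55 CPM in BR-IRGA 409 and 14.8, 5.44 and 6.28 CPM in IRGA 428 at 38 °C. At 29 °C it had 1.52, 0.727 and 1.51 CPM in BR-IRGA 409 and 5.69, 2.94 and 12.4 CPM in IRGA 428. The close pair, heat 1 and control 3, held the highest values. The log2 difference fell short of the threshold at 38 °C without heat 1 (−1.76) and at 29 °C without control 3 (−1.83). With both left out it was called at each temperature, with −1.76 and −1.83. Over all alternatives the call was lost in 14 of 25 at 29 °C and in 5 of 24 at 38 °C.

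**Figure D2:**
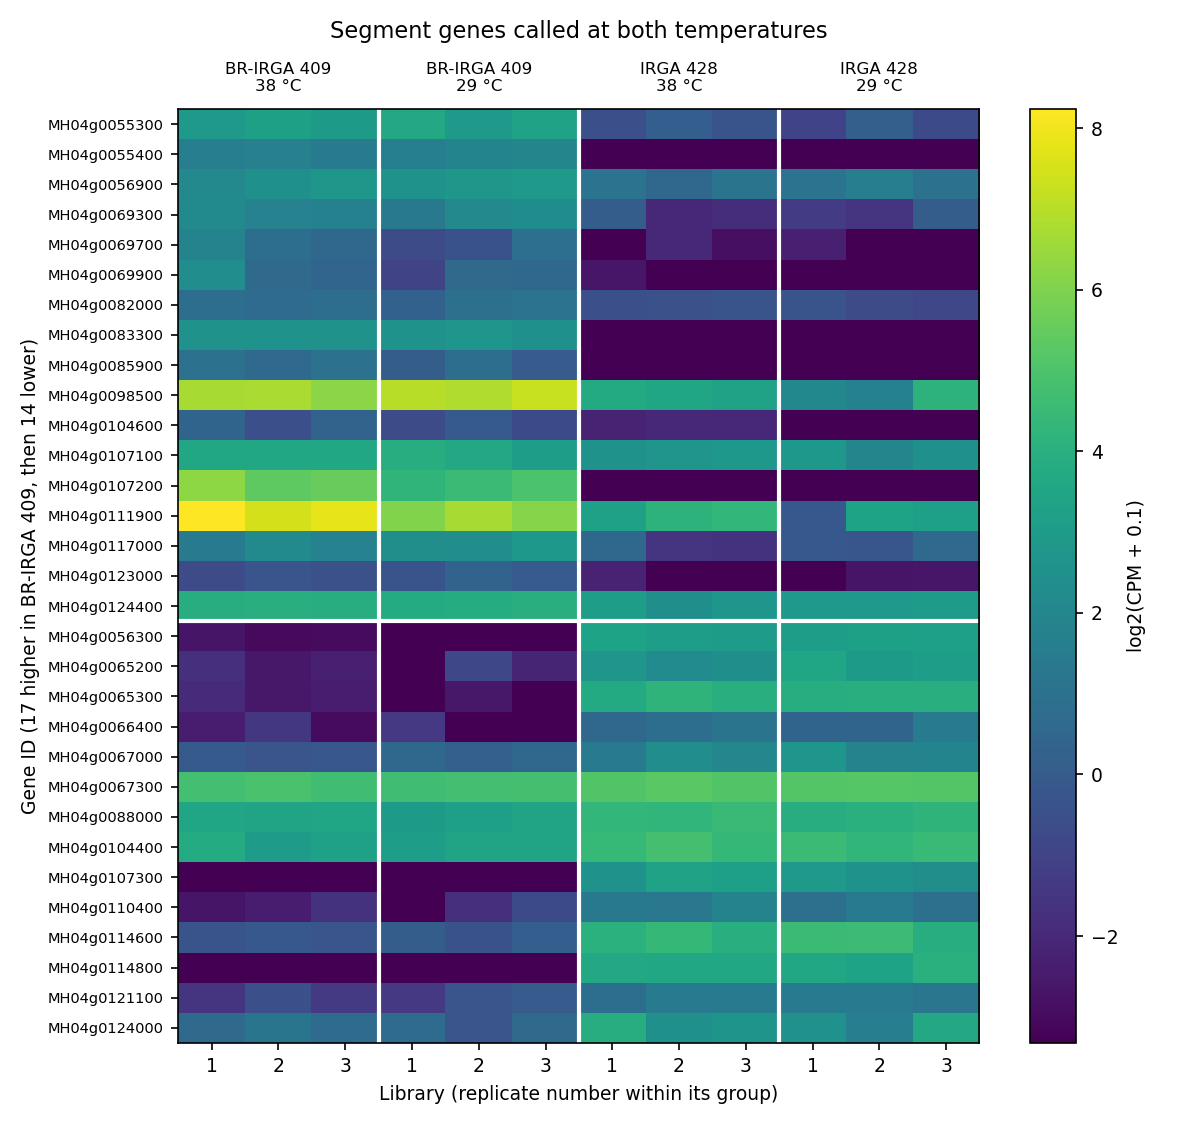
Level of the 31 members called at both temperatures, as log2(CPM + 0.1), in each of the 12 libraries, with a white line between the 17 genes higher and the 14 lower in BR-IRGA 409. The darkest cells are 0 counts, and within a cultivar the heat and control columns are mostly alike. MH04g0098500 shows the raised IRGA 428 control 3, and MH04g0124000 the raised IRGA 428 heat 1 and control 3.

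Calls were uneven along the segment. The first 10 genes held 8 of the 31, the next 10 held 6, and the later groups of 10 held 1 to 4 each. The longest runs in 1 direction were of 4 genes: MH04g0065200 to MH04g0067000 were lower, and MH04g0069300 to MH04g0082000 higher, in BR-IRGA 409. In the first run the log2 difference at 38 °C was −5.51 (SE 0.47) for MH04g0065200, −7.18 (SE 0.31) for MH04g0065300, −3.80 (SE 0.70) for MH04g0066400 and −2.29 (SE 0.31) for MH04g0067000. MH04g0065200, MH04g0065300 and MH04g0066400 had only 17, 15 and 17 counts in all in BR-IRGA 409 at 38 °C. In the other run the log2 difference was 3.19 (SE 0.62) for MH04g0069300, 5.01 (SE 0.79) for MH04g0069700 and 1.34 (SE 0.27) for MH04g0082000. The remaining gene of that run, MH04g0069900, had 334 counts in BR-IRGA 409 and 1 in IRGA 428 at 38 °C, a ratio of 141 after scaling (exact 95% interval 25.2 to 5593, counting error only). These runs were also picked after their values were seen. Of 99 pairs of adjacent members, 14 had both genes called at both temperatures, 9 in the same and 5 in opposite directions. Within the first 10, MH04g0056300 had 0.0554, 0.0223 and 0.0284 CPM in BR-IRGA 409 at 38 °C and 0 counts at 29 °C. In IRGA 428 it had 10.2, 8.52 and 8.37 CPM at 38 °C and 8.73, 9.35 and 9.01 CPM at 29 °C, so it was at least 91.8-fold lower in BR-IRGA 409 at 29 °C. This gene, between members that were higher in BR-IRGA 409, was picked after its values were seen.

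At the edges the first member, MH04g0055100, had a log2 difference of 0.32 (SE 0.17) at 38 °C and was not called, nor was its outer neighbour MH04g0055000 (−0.32, SE 0.21). The last member, MH04g0124400, was called at both temperatures with 1.10 (SE 0.16) at 38 °C, and its outer neighbour MH04g0125100 was not (−0.84, SE 0.58). The segment was the first of 6 windows of 100 genes that shared the highest count, 31, among 1816 such windows on this chromosome. Windows that start 25 genes earlier or later held 26 and 23.

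The segment was the densest part of a longer zone. The 86 tested genes before it held 14 genes called at both temperatures (16.3%), and the 3 runs of 100 genes after it held 15, 18 and 7. In all, the first 500 tested genes held 85 (17%), while the last 1415 held 7 (0.495%).

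**Figure D3:**
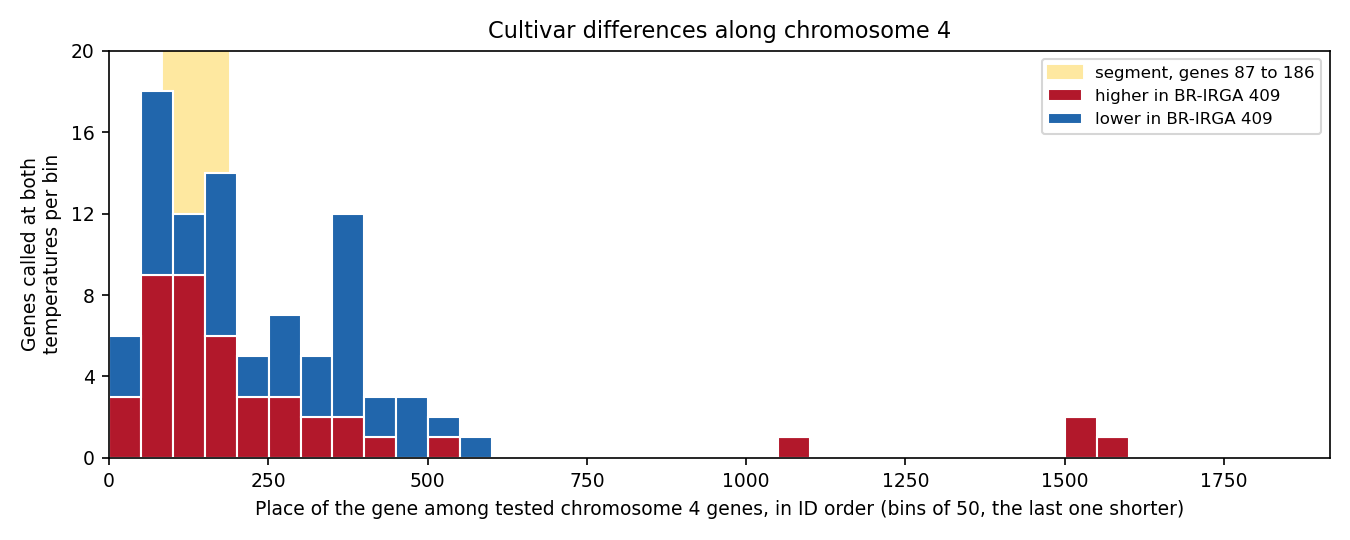
Number of genes called at both temperatures in bins of 50 tested chromosome 4 genes in ID order, split by direction, with the segment shaded. Bins up to the 600th gene held 1 to 18 such genes, and the others held 0 to 2.

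Beyond the filter on low counts, temperature is a contrast that the choice of the segment did not use. Here the share of its genes called stood near the background. In BR-IRGA 409, 8 of the 100 members were called between 38 °C and 29 °C, where 11.9% of all tested genes and 12.2% of the other MH04g genes were. Of the 8, 5 were higher (background 6.72%) and 3 lower (background 5.13%). The median log2 change was 0.02 over the segment and −0.03 over the other MH04g genes. Without regard to sign, the median was larger in the segment, 0.51 against 0.32 over the other MH04g genes and 0.30 over all tested genes. In IRGA 428 these medians were 0.32, 0.23 and 0.21. Whether the low levels of the members widen these values was not tested. Of the 8, 4 were also called between the cultivars at either temperature, as were 45 of all 100 members. Of these 45, 41 were not called for heat and 4 were, against 8 of all 100. Both numbers are near the shares in the whole segment and show neither a link nor a separation.

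MH04g0086600 fell by 1.10 on the log2 scale in BR-IRGA 409 (SE 0.19, edgeR quasi-likelihood adjusted p = 0.0151). It had 40.6, 37.7 and 39.0 CPM at 38 °C and 83.4, 77.7 and 91.3 CPM at 29 °C. In IRGA 428 it had 39.7, 57.3 and 60.3 CPM at 38 °C and 69.1, 78.9 and 48.9 CPM at 29 °C, groups that overlap, with a log2 change of −0.32 (SE 0.19). MH04g0123900 fell by 0.62 (SE 0.14, edgeR adjusted p = 0.0282), with 10.5, 14.4 and 12.4 CPM at 38 °C and 18.0, 18.6 and 20.5 CPM at 29 °C. The third that fell was MH04g0102400 (log2 change −2.30, SE 0.65, edgeR adjusted p = 0.0443). In IRGA 428 its log2 change was −2.05 (SE 0.62, edgeR adjusted p = 0.401), without overlap, and it was not called.

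Of the 5 that rose, 3 were adjacent: MH04g0112700, MH04g0112900 and MH04g0113000. MH04g0112900 had 251, 169 and 200 CPM at 38 °C and 31.8, 58.3 and 31.0 CPM at 29 °C in BR-IRGA 409, without overlap, a log2 change of 2.35 (SE 0.66, edgeR adjusted p = 0.0451). MH04g0113000 had 8.00, 5.94 and 6.32 CPM at 38 °C and 0.968, 3.24 and 1.64 CPM at 29 °C (1.71, SE 0.41, edgeR adjusted p = 0.0299). MH04g0112700 had 455 counts in all at 38 °C and 4 at 29 °C (4.52, SE 0.86, edgeR adjusted p = 0.019), so its 29 °C level is poorly known. The other 2 that rose were genes with 0 or 1 count in all in IRGA 428, MH04g0107200 (1.18, SE 0.30, edgeR adjusted p = 0.0485) and MH04g0085000 (2.26, SE 0.53, edgeR adjusted p = 0.0334). MH04g0085000 reached the filter's 0.608 CPM in BR-IRGA 409 at 38 °C alone. It could enter only through the group where it was high, which favours a rise, so its call is no separate support.

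The 3 adjacent genes lay in a run of 7 neighbours, MH04g0110900 to MH04g0113100, which was picked after its values were seen. All 7 had positive log2 changes in both cultivars, 1.54 to 4.52 in BR-IRGA 409 and 0.50 to 2.01 in IRGA 428. Heat and control libraries did not overlap for the 7 in BR-IRGA 409, as for 43.1% of all tested genes in either direction. In IRGA 428 they did not overlap for 3 of the 7, against 11.5% of all tested genes. The 4 not called were MH04g0110900, MH04g0111800, MH04g0111900 and MH04g0113100, with edgeR adjusted p of 0.0669, 0.0656, 0.087 and 0.153.

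MH04g0111800 and MH04g0112900 moved alike. MH04g0111800 had 236.4, 161.1 and 193.5 CPM at 38 °C and 36.9, 62.4 and 27.7 CPM at 29 °C in BR-IRGA 409, and the ratio of MH04g0112900 to MH04g0111800 counts was 0.861 to 1.27 in the 12 libraries. Whether these genes are near-identical copies that share reads is not given in the sources used here. In IRGA 428 MH04g0111800 had 51.3, 152.8 and 161.3 CPM at 38 °C and 10.3, 117 and 40.8 CPM at 29 °C. The lowest value was in control 1, the shallowest library of this cultivar, and heat 1 lay below control 2.

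MH04g0111900, between this pair, had the same direction in heat and was far lower in IRGA 428. It had 301, 181 and 222 CPM at 38 °C and 66.1, 105 and 70.1 CPM at 29 °C in BR-IRGA 409. In IRGA 428 it had 9.57, 17.5 and 20.2 CPM at 38 °C and 0.813, 10.3 and 9.14 CPM at 29 °C. Its neighbours MH04g0111800 and MH04g0112700 had cultivar differences of 0.69 (log2, SE 0.68) and −0.07 (SE 0.53) at 38 °C and were not called.

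**Figure D4:**
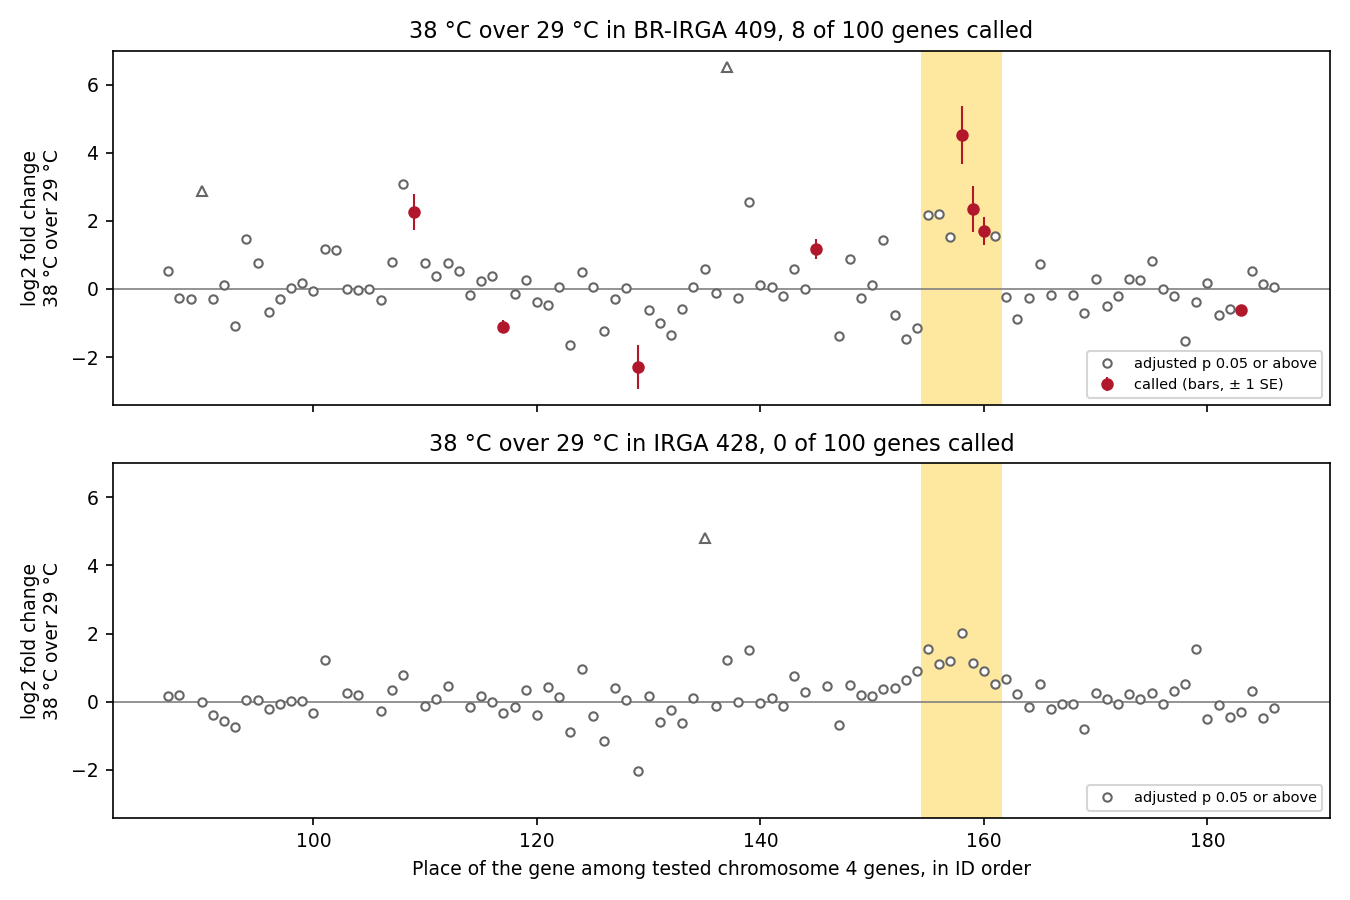
Log2 fold change of 38 °C over 29 °C in each cultivar for the segment's genes in ID order, without 2 genes in BR-IRGA 409 and 6 in IRGA 428 that had 3 or fewer counts in that cultivar. Filled symbols are called (8 and 0 genes, bars ± 1 SE), triangles have 0 counts at one temperature, and the shaded run of 7 neighbours lies above 0 in both panels.

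The 5 most abundant members, which include MH04g0111800 and MH04g0112900 of this run, took 39.7 to 40.3% of the segment's counts in BR-IRGA 409 at 38 °C and 25.3 to 26.8% at 29 °C. The segment's share of all MH04g counts was 2.50% ± 0.104 at 38 °C and 2.03% ± 0.0295 at 29 °C in BR-IRGA 409, without overlap. In IRGA 428 it was 2.09% ± 0.181 at 38 °C and 1.93% ± 0.157 at 29 °C, with overlap (SD, n = 3 in each group).

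Heat calls in BR-IRGA 409 depended on single libraries, over all tested genes as in the segment. No member was called without BR-IRGA 409 heat 1, heat 3, control 1 or control 3, where 0.435%, 0.184%, 0.394% and 0.233% of all tested genes were. Without control 2 there were 2 members (2.63% of all tested genes), and without heat 2 there were 5 (7.73%). The IRGA 428 libraries enter through the shared estimate of the spread. Without IRGA 428 control 1, 2 or 3, 19, 16 and 13 members were called, against 17.5%, 13.9% and 18.2% of all tested genes. Without IRGA 428 heat 1 there were 12 (12.8%), and without heat 2 or heat 3 there were 5 each (7.04% and 6.85%). In BR-IRGA 409 every heat library was deeper than every control library. With all libraries thinned to the smallest, 6 were called, against 8.2% of all tested genes, and MH04g0112900 had a log2 change of 2.35 (edgeR adjusted p = 0.0509). The split of 5 higher and 3 lower was 4 and 5 with upper-quartile scaling.

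In IRGA 428, 0 members were called for heat, as over all tested genes (0%). At an unadjusted p below 0.05 there were 8 members, where 11.7% of all tested genes had such a p. DESeq2 called 0 members, and 13 of the 57174 listed genes (0.0227%). With limma-voom 0 members and 0% of all tested genes were called. The most positive change among members whose mean log2 CPM reached 1 was that of MH04g0111900 (1.19, SE 0.58, edgeR adjusted p = 0.429). The most negative was that of MH04g0108200 (−0.69, SE 0.41, edgeR adjusted p = 0.471), with 7.07, 3.85 and 2.88 CPM at 38 °C and 9.75, 6.93 and 5.59 CPM at 29 °C, which overlap. Without control 3, 6.83% of all tested genes were called, and 2 members, MH04g0098500 and MH04g0102400, with log2 changes of 1.64 and −2.51. Without both control 3 and heat 1, 5.63% of all tested genes and 4 members were called, with MH04g0101400 and MH04g0112700 added.

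The heat response differed between the cultivars in 0 members by the interaction test, where 0.00448% of all tested genes (1 gene) were called. DESeq2 also called 0 members, and 42 of the 57174 listed genes (0.0735%). With limma-voom 0 members and 0% of all tested genes were called. In edgeR 8 members had an unadjusted p below 0.05, where 5.54% of all tested genes had such a p. The largest differences of the responses among members whose mean log2 CPM reached 1 were 1.22 for MH04g0112900 (SE 0.89, edgeR adjusted p = 0.952) and −1.12 for MH04g0113400 (SE 0.46, edgeR adjusted p = 0.878). Among the 18 of the 31 members with over 3 counts in every group, the cultivar difference changed between the temperatures by a median of 0.27. The largest change was 1.17 on the log2 scale. The 31 were taken for calls in the same direction at both temperatures, which favours small changes, so these values test nothing. Over all 100 members the median absolute difference of the responses was 0.37, against 0.21 over all tested genes.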

How the data were processed

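Spikelet RNA was sequenced in 12 libraries, grouped by the cultivar and treatment in the sample titles. Each library has 1 deposited table of unnormalized read counts by gene. Per the submitters' processing notes, Trimmomatic 0.33, HISAT2 2.05 and HTSeq 0.6.1 were used; parameters, genome build and strandedness: not given in the sources used here, so overlapping antisense genes cannot be told apart. The 5 closing lines that name no gene (19.9% to 25.0% of a library) were kept out.

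The counts went into edgeR 4.0.16 (R 4.3.3): filterByExpr, trimmed mean of M-values, 1 mean per group over 12 libraries (8 residual degrees of freedom), robust quasi-likelihood F-tests, and Benjamini-Hochberg adjustment over 22321 genes. Replicates are separate libraries, and p-values measure the spread between them. Each SE is the absolute log2 change divided by the square root of the test's F, not a separately fitted standard error. It is an approximation that can be too small where a group has few counts. Bounds cover counting error only, since reads are not independent molecules. Replicate numbers paired libraries between cultivars at 29 °C (correlations of deviations 0.259, 0.314 and 0.180) and in no other comparison.

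The members and lists were chosen with earlier results of these data known. Genes named were, per contrast, the 2 highest and 2 lowest called members whose mean log2 CPM reached 1 and whose groups did not overlap, the edges, the most abundant, members with 0 counts in a cultivar, and neighbours of the top genes; others were picked after their values were seen. Alternatives used DESeq2 1.42.0 and limma 3.58.1.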

Additional observations from a re-analysis of the deposited data

How the results depend on the processing

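The number of members called between cultivars at 38 °C (44) stayed within 1.5 times under each alternative run. An adjusted p below 0.01 left 17 members at 29 °C (2.3% of all tested genes), 17 at both temperatures and 0 for heat in BR-IRGA 409 (0.228%). Fits of only the 6 libraries compared called 17 at 29 °C (2.1%), 16 at both and 26 for heat in BR-IRGA 409 (22.1%), and with the replicate block at 29 °C 15 (1.79%). A replicate block over all 12 libraries gave 25 at 29 °C (3.53% of all tested genes) and 40 at 38 °C (5.83%). At both temperatures it gave 23, against 2.92% of the other MH04g genes. It gave 10 for heat in BR-IRGA 409 (11.8% of all tested genes), and 0 for heat in IRGA 428 and for the interaction (0% each). Heat in BR-IRGA 409 gave 22 with DESeq2, which called 4675 of the 57174 listed genes, and 5 without the filter (4.53% of 35234 genes). Both totals include genes that fail the filter on low counts, unlike the 100 members, and 21940 of the 57174 had no read. These shares are therefore not comparable with the numbers of members. Without both IRGA 428 control 3 and heat 1 it gave 18 (21.2% of all tested genes), and heat in IRGA 428 gave 4 (5.63%); this setting and the block at 29 °C alone were added after the data had been seen. Leaving out 1 library at a time gave 0 to 19 for heat in BR-IRGA 409 and 0 to 2 for heat in IRGA 428. It gave 19 to 31 at 29 °C, 31 to 45 at 38 °C, 19 to 29 at both, and 0 for the interaction. Over these runs 0.184% to 18.2% of all tested genes were called for heat in BR-IRGA 409 and 0% to 6.83% in IRGA 428. Between cultivars the shares were 2.78% to 4.57% at 29 °C and 4.07% to 8.46% at 38 °C. The cause of these shifts was not tested. Over all alternatives that gave a value, 16 to 33 members were called at both temperatures, against 1.87% to 4.30% of the other MH04g genes. Low levels limit the precision, since 17 of the 100 members averaged below 1 CPM.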
